A study of Drosophila melanogaster with 4 samples.

Results

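The genes described here are nuclear-encoded subunits of oxidative phosphorylation, in germ cells, gonadal precursors and other soma of Drosophila melanogaster embryos. They were chosen by symbol, as every gene whose name starts with ND-, UQCR-, COX or ATPsyn. The rule found 74 of the 13947 genes in the tables of single cells, and the same number among the 17807 genes in the table of single nuclei. Grouped by the start of the symbol only, 40 of the 74 were placed in complex I, 8 in complex III, 11 in complex IV and 15 in the ATP synthase. The count includes 16 paralogs whose symbol ends in L after the name of a main copy.

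Oxidative phosphorylation takes electrons from NADH through complex I and from succinate through complex II, passes them to complex III and then by cytochrome c to complex IV, and uses the resulting proton gradient to drive the ATP synthase. Most subunits are encoded in the nucleus and imported, whereas a small catalytic core is encoded by the mitochondrial genome. In the fly several subunits have duplicate copies, many of which are known for expression in the testis.

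All flies carried vas-GFP, a transgene that marks the germline and was used to sort germ cells and whole gonads. The 0- to 8-h library, a re-analysis of an earlier collection of sorted germ cells, held 3802 cells. The 8- to 20-h library, sorted as loose germ cells at the earlier ages and as gonads that were then digested with enzymes at the later ages, held 12569 cells. The multiome library held 3022 nuclei pooled over 0 to 20 h. Each library was 1 pooled sample, so no comparison has a replicate, no test was possible and no p-value is given. Values are unique molecular identifiers (UMIs) summed over the cells of a class, given as counts per 1000000 UMIs of that class (CPM). Exact 95% intervals in brackets cover counting error only, not the spread between embryos or collections. A gene was called higher or lower in a comparison at a ratio of 1.5-fold or more, among genes with at least 100 UMIs in both classes together.

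Total depth was 42374849 UMIs in the 0- to 8-h library, 132310415 in the 8- to 20-h library and 27225261 in the nuclei, and no cell barcode was shared between libraries. The germ cell classes were cells before zygotic activation (GC-like, 1799 cells of the 0- to 8-h library), stage 1 (1524 cells of the 0- to 8-h library) and stage 2 (1914 cells), FGC3 (1047) and MGC3 (1151) of the 8- to 20-h library. Stage 1 and stage 2 cells were divided into female (FGC) and male (MGC) cells by the ratio of X-linked to autosomal UMIs, computed without the 74 genes. Y-linked UMIs numbered 2 in FGC1, 7 in FGC2 and 0 in FGC3, against 42 in MGC1, 193 in MGC2 and 139 in MGC3. Of 10 germline markers, 9 were raised in each of the stage 2, FGC3 and MGC3 clusters, 6 in both GC-like clusters and 4 in the stage 1 cluster. An unnamed somatic cluster of the 0- to 8-h library (319 cells) is called early soma. The somatic gonadal precursors (SGP-like, 5187 cells) fell into 5 clusters, each named here by whichever of CG5149, Wnt2, Six4 and upd1 was highest in it, or by small size where that name was taken. Wnt2 was at 156 CPM in the cluster named for it and at 204 CPM in the Six4-led cluster, so it is not particular to the former, whose leading genes were Swim, CG14984 and CG14072. The other named soma was muscle-like (592 cells), fat body-like (365), neuron-like (330), glia-like (215), hemocyte-like (106) and midgut-like (97). Nuclei keep the cluster names of the study.

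Among the paralogs, the pair that changed most was ATPsynepsilonL and sun, which encodes the epsilon subunit of the ATP synthase central stalk. The main copy sun is not a member, as its symbol falls outside the naming rule. Levels of ATPsynepsilonL, sun, COX7AL and ND-B8, the last 2 being members with germ cell signal, are compared below. The 150 bases before the start of each are therefore shown. They were read from the RefSeq Release 6 genome, on the strand of the gene, from chr3R:10121623-10121772 (+), chrX:15849259-15849408 (-), chr3R:8343519-8343668 (+) and chr2L:4454476-4454625 (+). Capitals mark matches, on either strand, to the DNA replication-related element (DRE) TATCGATA, Motif 1 GGTCACACT, the TATA box TATAAA or the E-box CAGCTG.
ATPsynepsilonL: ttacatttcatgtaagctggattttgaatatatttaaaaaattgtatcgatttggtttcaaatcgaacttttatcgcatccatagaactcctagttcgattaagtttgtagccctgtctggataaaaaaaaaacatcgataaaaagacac
sun: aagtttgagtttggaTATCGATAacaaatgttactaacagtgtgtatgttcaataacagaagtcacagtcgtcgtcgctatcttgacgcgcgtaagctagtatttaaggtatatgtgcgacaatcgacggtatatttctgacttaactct
COX7AL: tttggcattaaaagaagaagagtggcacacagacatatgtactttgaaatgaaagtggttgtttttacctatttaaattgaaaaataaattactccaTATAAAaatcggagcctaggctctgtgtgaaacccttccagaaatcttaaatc
ND-B8: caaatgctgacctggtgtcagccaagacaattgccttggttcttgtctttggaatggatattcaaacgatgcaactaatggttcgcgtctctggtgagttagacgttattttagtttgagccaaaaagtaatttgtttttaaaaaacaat
The sun window held a DRE that began 135 bases before the start, and the COX7AL window held a TATA box that began 53 bases before it. No match lay within 250 bases of ATPsynepsilonL or ND-B8, which says only that these letters are not in that window. Within 250 bases, the DRE was found in 8.01% of the 13921 protein-coding genes, in 13.8% of the 58 main-copy members and in 0 of the 16 paralogs. Motif 1 was found in 3.12% of all genes, 12.1% of main copies and 6.25% of paralogs. The TATA box was found in 43.0%, 63.8% and 31.2%, and the E-box in 13.4%, 17.2% and 6.25%, in the same order. None of the 4 motifs contains another, and a match is a description of the sequence.

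The 74 genes took a share of the transcriptome that varied widely between somatic classes and little between the named germ cell classes. Their share of UMIs was 3.25% in GC-like cells. In female and male cells it was 3.61% and 3.63% at stage 1, 3.25% and 3.25% at stage 2, and 3.08% and 3.23% at stage 3. Stages 2 and 3 are of the later library. Within the GC-like cluster that both libraries shared, the share was 3.18% in 0- to 8-h cells and 2.58% in 8- to 20-h cells. For an unnamed germline cluster of low depth in the later library, the share was 2.37%. In soma it was 4.28% in midgut-like, 3.36% in fat body-like and 3.18% in muscle-like cells, 2.55% in glia-like, 1.82% in neuron-like and 1.74% in hemocyte-like cells. SGP-like clusters spanned 2.96% in the Wnt2-led cluster, 2.50% in the small cluster, 1.72% in the upd1-led, 1.70% in the CG5149-led and 1.54% in the Six4-led cluster. The widest counting interval was that of the midgut-like class, 4.23% to 4.33%. The germ cells, muscle-like, fat body-like and midgut-like cells and the Wnt2-led SGPs were thus all higher than the CG5149-led, Six4-led and upd1-led SGPs, the neuron-like and the hemocyte-like cells.

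**Figure D1:**
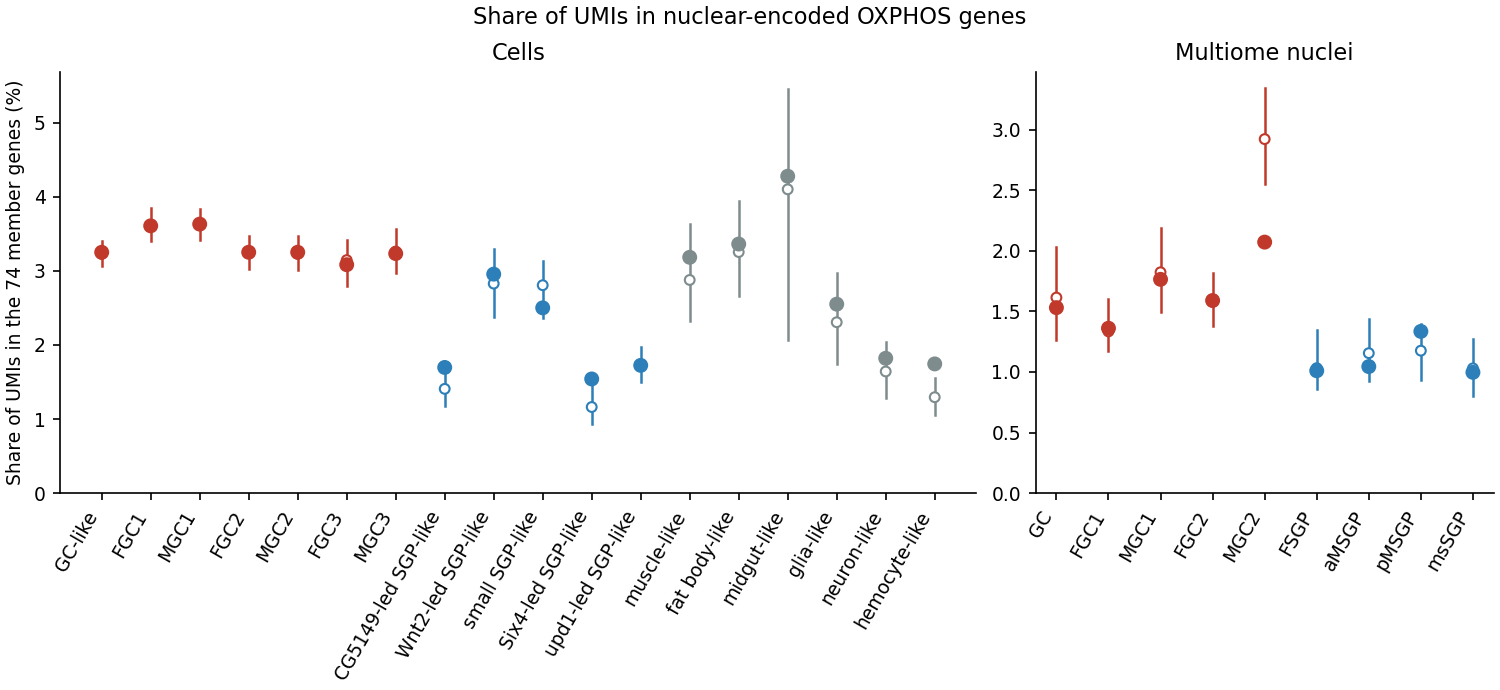
Share of UMIs in the 74 member genes (percent, vertical axis) in each class of cells (left) and each cluster of nuclei (right). Filled points are the share of the pooled UMIs, open points the median over cells and lines the middle 50% of cells. Red is germline, blue SGP and grey other soma. Germ cell classes lie between 3.08% and 3.63%, and the SGP-like clusters between 1.54% and 2.96%.

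In nuclei the share was lower in every cluster than in the matching cells. Germ cell nuclei had 1.53% (GC), 1.36% (FGC1), 1.76% (MGC1), 1.59% (FGC2) and 2.07% (MGC2), against 1.01% in FSGP, 1.04% in aMSGP, 1.33% in pMSGP and 0.997% in msSGP. Germ cell nuclei were therefore above FSGP, aMSGP and msSGP nuclei, in the same order as germ cells and most SGP-like cells. The MGC2 cluster held 32 nuclei, and its median nucleus had a share of 2.92%, above the pooled value. The pMSGP nuclei carried CG4415, a germ cell gene, at 217 CPM, close to the 213 CPM of FGC2 nuclei, and the part of germline RNA in their share was not tested. The 125 pMSGP and 314 FSGP nuclei held 6247438 and 4947570 UMIs at median depths of 2910 and 1993. Large nuclei thus weigh heavily in the pooled values of both clusters. Their median nuclei had shares of 1.18% and 1.03%.

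The 10 members with the highest CPM, summed over 18 classes without early soma, were ATPsynC, ATPsynF, COX6B, COX7A, ATPsynG, COX4, COX5A, UQCR-Q, ATPsynE and ATPsynbeta, which together held 38.2% of all UMIs of the members. ATPsynC, which forms the rotating c ring of the ATP synthase, was first in each of these classes and ranged from 987 CPM in Six4-led SGPs to 5032 CPM in midgut-like cells. ATPsynbeta, the catalytic subunit, ranged from 469 CPM in hemocyte-like to 1797 CPM in midgut-like cells. COX7A, a nuclear-encoded subunit of cytochrome c oxidase, ranged more narrowly, from 660 to 1568 CPM. Levels are tags at the 3′ end of transcripts, so they were not divided by gene length.

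The non-member genes whose pattern was most like the summed members over 19 classes, by Pearson correlation of log2(CPM + 5), were mRpL54 (r = 0.956), CG31126 (0.952), mRpL12 (0.949), mRpL24 (0.949) and levy (0.948). mRpL54, mRpL12 and mRpL24 encode proteins of the mitochondrial ribosome, and levy encodes a complex IV subunit that the naming rule misses. The classes share 2 libraries, and these correlations are a description. Among the 57 members plotted by class, all above a mean of 20 CPM, the least like the sum were UQCR-C2 (0.176), ATPsynepsilonL (0.189), ND-MLRQ (0.206) and ND-B14.7 (0.368).

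**Figure D2:**
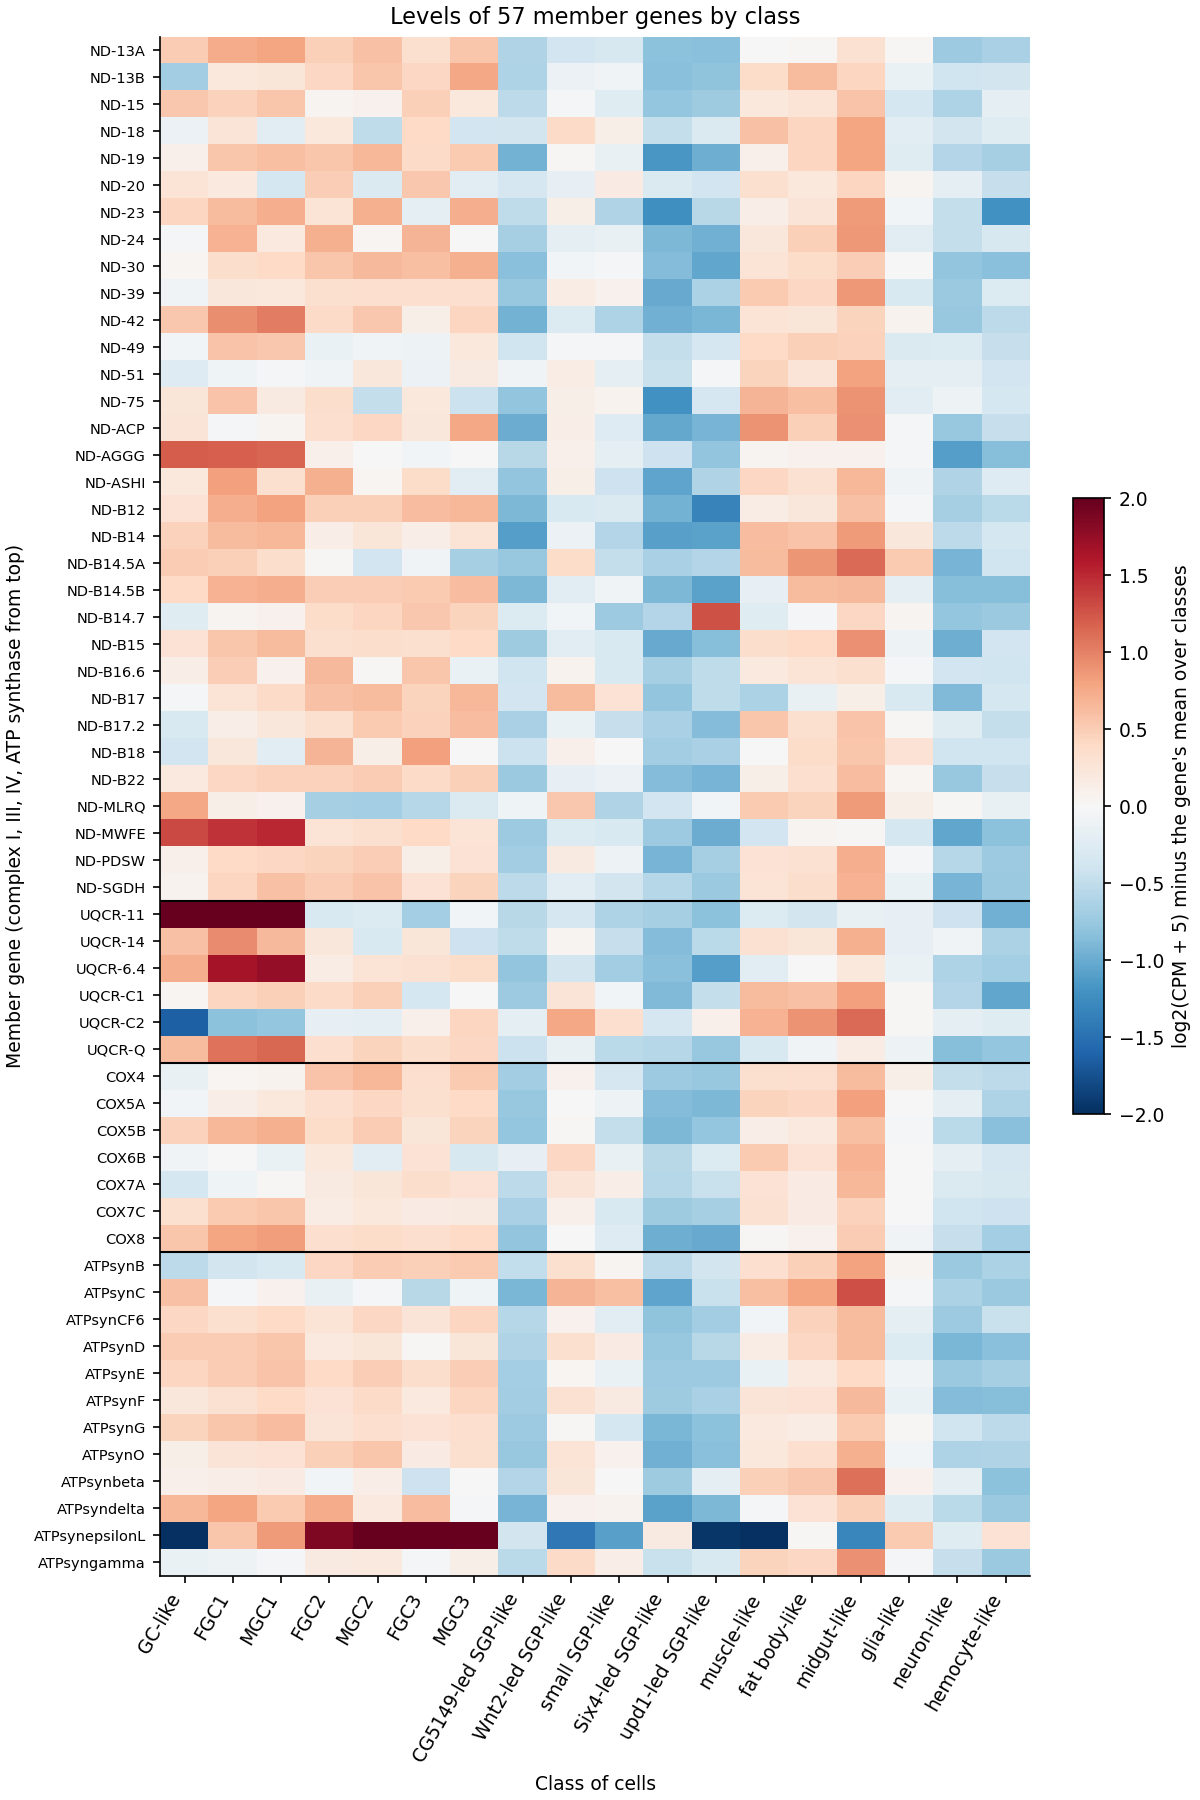
Levels of the 57 member genes with a mean of at least 20 CPM (rows, by complex) in each class of cells (columns). Color is log2(CPM + 5) minus the mean of the gene over the classes, and values past 2 in either direction share the end colors. Most rows share the pattern of the summed members, and the 5 least like it are UQCR-C2, ATPsynepsilonL, ND-MLRQ, ND-B14.7 and UQCR-11.

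Zygotic activation separates GC-like from stage 1 cells, both from the 0- to 8-h library. Of 60 members with enough UMIs, 8 were higher at stage 1 and 1 was lower, which is 13.3% and 1.67% against 28.8% and 16.7% of all 6745 genes compared. The median member was higher by 0.24 on the log2 scale, against 0.19 for all genes, and 49 of the 60 had a ratio above 1. The median shift of the members was thus close to that of all genes.

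The 3 largest ratios belonged to genes with little RNA before activation. ND-B8, an accessory subunit of complex I, was at 2.15 CPM in GC-like cells and 31.9 CPM at stage 1, a ratio of 14.9 (95% interval 11 to 20.5). ATPsynepsilonL went from 18.2 to 179 CPM, a ratio of 9.83 (8.85 to 10.9). COX7AL went from 4.16 to 20.3 CPM, a ratio of 4.88 (3.86 to 6.21). The other 5 genes called higher were UQCR-6.4, a small subunit of complex III that went from 631 to 1250 CPM, and ND-13B, UQCR-C2, ND-MNLL and ND-49, with ratios of 1.92, 1.82, 1.65 and 1.55. In the other direction, ND-MLRQ, the fly counterpart of mammalian NDUFA4, fell from 644 to 403 CPM and was the sole member called lower. ATPsynC, at 3082 and 2117 CPM, had a ratio of 0.687 (0.678 to 0.696), just inside the fold, and ND-20, an iron-sulfur subunit of complex I, had a ratio of 0.781.

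In nuclei, all from a single library, the same step gave 6 members higher and 0 lower in MGC1 than in GC (10.5% of 57, against 8.55% higher and 33.0% lower of all genes). In FGC1 against GC it gave 1 higher and 3 lower (1.75% and 5.26%, against 14.3% and 15.0%). UQCR-C2, a core protein of complex III, was at 48.9 CPM in GC nuclei, 107 CPM in MGC1 and 60.5 CPM in FGC1, and ATPsynepsilonL was at 117, 232 and 101 CPM. ND-13B, a complex I subunit, was at 88.4, 162 and 81.9 CPM. All 3 were higher in MGC1 than in GC, whereas in FGC1 they were not past the fold. ND-AGGG, UQCR-11 and ND-B17.2 were lower in FGC1 than in GC, with ratios of 0.554, 0.654 and 0.666. ND-49, a core subunit of complex I, was the member higher in FGC1, with a ratio of 1.65 (1.18 to 2.37) on 41 UMIs in GC. Under the scaling by the median of gene ratios, the count higher in MGC1 was 16 rather than 6.

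Between stage 1 and stage 2 the stage and the library changed together and cannot be told apart. Of 61 members, 5 were higher and 10 lower at stage 2 (8.20% and 16.4%, against 26.0% and 23.8% of 7197 genes). Of the 10 lower genes, grouped by symbol, 9 were placed in complexes I and III and 1, COX7AL, in complex IV. UQCR-11, an accessory subunit of complex III, stood at 1652 (FGC1) and 1581 CPM (MGC1) in the earlier library, against 278 (FGC2) and 283 CPM (MGC2) in the later. UQCR-6.4 went from 1250 to 440 CPM, and ND-MWFE, a complex I subunit in the membrane arm, from 629 to 277 CPM. COX7AL went from 20.3 to 3.12 CPM and had the lowest ratio of all, 0.154.

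The same fall between libraries was seen within clusters that held cells of both. In the GC-like cluster that the libraries shared, UQCR-11 was at 1639 CPM in 0- to 8-h cells and 330 CPM in 8- to 20-h cells, UQCR-6.4 at 638 and 279 CPM, ND-MWFE at 580 and 221 CPM, and ND-AGGG at 233 and 79.3 CPM. In the neuron-like cluster, where 22.6% of all genes were lower and 31.9% higher in the later library, UQCR-11 was at 615 and 258 CPM, and ND-MWFE at 280 and 106 CPM. Of the 10 members lower at stage 2, 9 could be compared in the GC-like cluster and 8 of these were lower there too in the later library, as were 5 of the 6 that could be compared in the neuron-like cluster. Between FGC1 and FGC2 nuclei, within a single library, 0 of the 9 with enough UMIs were lower. In FGC1 and FGC2 nuclei respectively, UQCR-11 had 232 and 222 CPM, and UQCR-6.4 had 135 and 217 CPM. A change with stage was therefore not separable from the library for UQCR-11, UQCR-6.4, ND-MWFE, ND-AGGG, UQCR-14, UQCR-Q, ND-MLRQ and ND-B14.5A, and in the GC-like cluster 19.7% of all genes were lower in the later library and 31.5% higher. ND-MWFE lies over Nrk and UQCR-Q over CG46525 on the same strand, so reads of those 2 members may be assigned with less certainty.

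**Figure D3:**
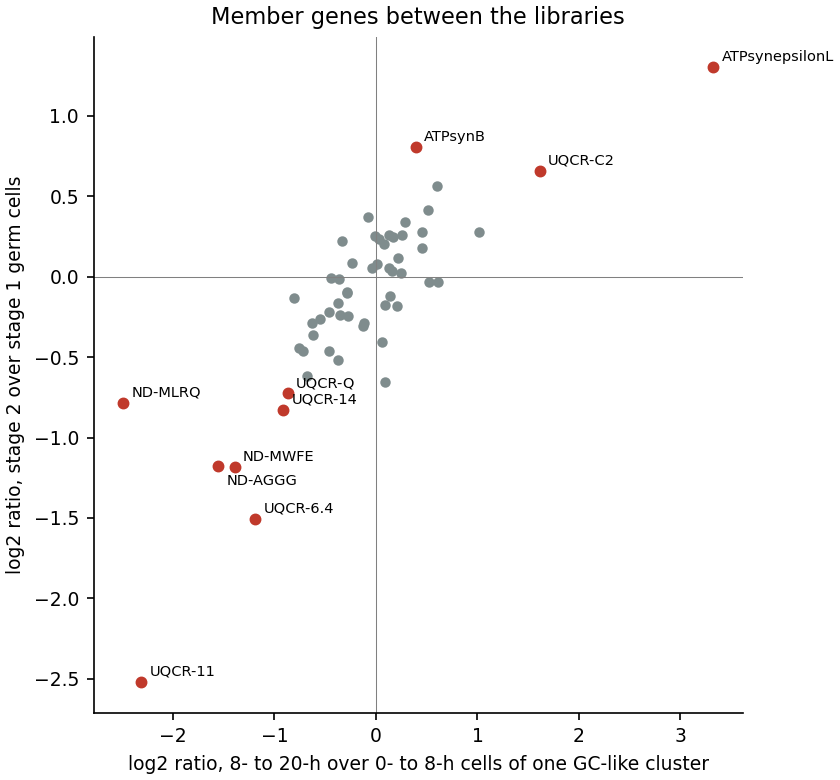
log2 ratio of each of 57 member genes between stage 2 and stage 1 germ cells (vertical) against that between the 8- to 20-h and 0- to 8-h cells of a single GC-like cluster (horizontal). Both axes contrast the later with the earlier library, and UQCR-11, UQCR-6.4, ND-MWFE and ND-AGGG are low on both.

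The members higher at stage 2 included genes that were also higher in nuclei. Of the 5 that were higher, 3 could be compared between libraries within the shared GC-like cluster. There 2 of these were also higher in the later library, as were 2 of 2 in the neuron-like cluster. Of all genes, 31.5% and 31.9% were higher in the later library in these clusters, respectively. In cells a change with stage was thus not separable from the library for these members either. ATPsynepsilonL went from 179 to 440 CPM in cells (ratio 2.46) and from 101 CPM in FGC1 to 205 CPM in FGC2 nuclei (2.03, 1.73 to 2.39). UQCR-C2 went from 154 to 243 CPM in cells (1.58) and from 60.5 to 105 CPM in nuclei (1.73, 1.41 to 2.16). ATPsynB, a subunit of the peripheral stalk, went from 573 to 1000 CPM in cells and had a ratio of 1.12 in nuclei. ATPsynbetaL had the highest ratio, 7.76, but stood at 3.67 CPM at stage 2, against 863 CPM for its main copy. In nuclei 4 of 57 members were higher in FGC2 than in FGC1 and 0 were lower (7.02%, against 7.83% higher and 14.4% lower of all genes), and the other members past the fold were UQCR-6.4 (1.61) and ND-13B (1.55).

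From stage 2 to stage 3, within the 8- to 20-h library, levels of most members stayed close. In females 0 of 60 members were higher and 3 lower (5%, against 7.24% higher and 12.3% lower of all genes). In males 2 of 61 were higher and 1 lower (3.28% and 1.64%, against 6.07% and 17.1%). The median member changed by -0.03 in females and -0.01 in males on the log2 scale. UQCR-C1, the partner core protein of UQCR-C2, was lower in both, from 521 to 312 CPM in females (0.60, 0.582 to 0.620) and from 556 to 401 CPM in males (0.721), past the fold in females only. UQCR-C2 went the other way, from 241 to 366 CPM in males (1.52, 1.47 to 1.58) and from 243 to 292 CPM in females (1.2). The difference between the sexes in these steps was not tested.

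In females the others called lower were ND-B8 and ATPsynbetaL, with ratios of 0.60 and 0.496, and the highest ratio was that of ND-15, 1.34. ND-15 lies over 6 genes on the same strand, so its reads may be assigned with less certainty. In males ATPsynepsilonL was the other gene called higher, at 470 CPM in MGC2 and 755 CPM in MGC3 (1.61, 1.56 to 1.65), and ATPsynbetaL was lower (0.468). ND-MLRQ and ND-ACP, the mitochondrial acyl carrier protein, had ratios of 1.32 and 1.28 in males. The 13 subunits encoded by the mitochondrial genome had a median of -0.41 in females and -0.23 in males on the log2 scale, with 4 and 3 of 12 lower and 0 higher.

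In cells, ATPsynepsilonL was below its main copy up to stage 1 and above it from stage 2, a step at which the library also changed. It stood at 18.2 CPM in GC-like cells, then, for females and males, at 159 and 197 CPM at stage 1, 406 and 470 CPM at stage 2, and 440 and 755 CPM at stage 3. The X-linked main copy sun went from 683 CPM in GC-like cells to 742 and 638 CPM at stage 1, 374 and 275 CPM at stage 2, and 399 and 260 CPM at stage 3, in the same order of the sexes. The paralog was thus at 0.0266 UMIs per UMI of sun before zygotic activation, 1.08 in FGC2, 1.71 in MGC2 and 2.91 in MGC3. The share of GC-like cells with an ATPsynepsilonL UMI was 16.1% (14.4% to 17.8%) at a median depth of 11807 UMIs, against 96.1% of FGC2 cells at 21798. With 1000 UMIs taken from each cell, the expected shares were 1.74% and 32.7%. In nuclei, all of a single library, the paralog was below sun in GC (117 against 244 CPM), FGC1 (101 against 264), MGC1 (232 against 297) and also FGC2 (205 against 269 CPM, on 1066 and 1401 UMIs). Among the germ cell clusters it was above sun only in MGC2 (32 nuclei), at 844 against 300 CPM on 298 and 106 UMIs. Of the SGP clusters, pMSGP nuclei also had it above sun, at 210 against 191 CPM on 1311 and 1193 UMIs. Those nuclei carried the germ cell gene CG4415 at 217 CPM. It was below sun in FSGP, aMSGP and msSGP nuclei.

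In soma ATPsynepsilonL ranged from 16.0 CPM in muscle-like cells to 157 CPM in glia-like cells, and sun from 138 to 471 CPM. Germline transcripts were present throughout the soma. All 10 germline markers had UMIs in every somatic class, with a summed level of 84.0 CPM in muscle-like to 656 CPM in Six4-led cells, against 1287 to 1626 CPM in germ cells. ATPsynepsilonL stood at 0.726 to 1.00 UMIs per UMI of the germ cell gene CG4415 in the somatic classes of the 8- to 20-h library, and at 0.702 to 1.13 in germ cells. In early soma the value was 1.27 (0.736 to 2.21), on 33 UMIs of ATPsynepsilonL. The share of cells with a UMI was 6.93% in muscle-like to 21.4% in upd1-led cells. Whether these somatic values are background of germline RNA was not tested.

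ND-B8 and COX7AL were also low in soma and GC-like cells, though not below every later germ cell class. In female and male cells, ND-B8 was at 24.4 and 39.4 CPM at stage 1, 20.3 and 38.2 CPM at stage 2, and 12.2 and 33.8 CPM at stage 3. It was thus higher in male cells each time. In soma it was at 0.679 CPM in early soma to 12.3 CPM in hemocyte-like cells, on 1 to 56 UMIs a class. COX7AL peaked at stage 1, with 18.3 CPM in females and 21.9 CPM in males, and was at 2.01 to 4.18 CPM in all other germ cell classes. Its main copy COX7A was at 773 CPM in GC-like and 926 to 1261 CPM in the later germ cell classes, so COX7AL added at most a small part at any stage. In FGC1 nuclei COX7AL had 8 UMIs and in MGC1 nuclei 2.

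**Figure D4:**
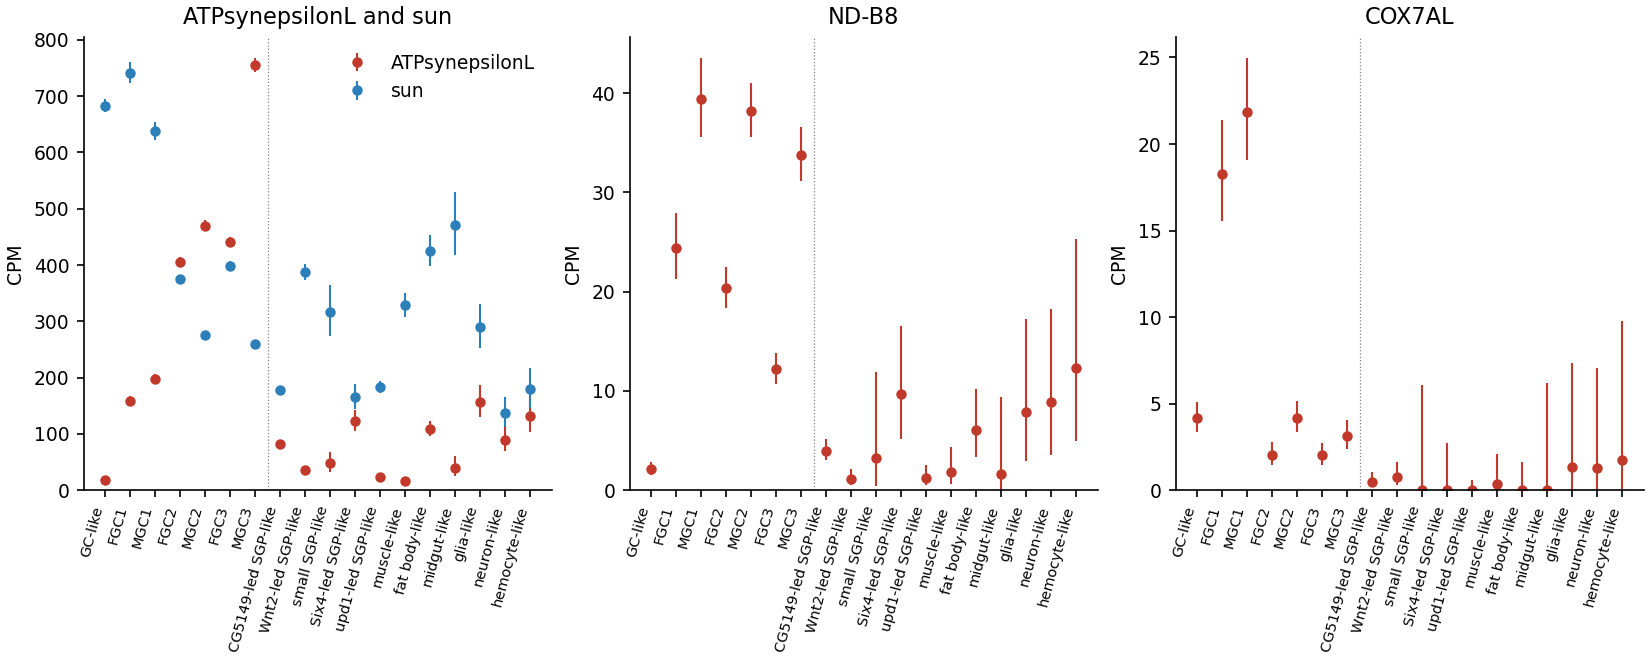
CPM (vertical axis, from 0) of ATPsynepsilonL with its main copy sun, of ND-B8 and of COX7AL in each class of cells, with exact 95% counting intervals as bars. The dotted line divides germ cells from soma. ATPsynepsilonL is above sun, which is not a member, from stage 2 in cells, which are those of the later library. All 3 of the plotted members are highest in germ cells.

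The other paralogs ending in L were scarcely detected. Of 174685264 UMIs in all cells, COX4L had 402, ATPsynbetaL 272, ND-51L1 45, ATPsynGL 42, ND-24L 40, COX5BL 10, UQCR-11L 9 and ND-51L2 8. ND-49L, ATPsynCF6L, ND-B14.5AL, ND-20L and COX6AL had 1 each, and UQCR-14L had 0, which allows a level of up to 0.0172 CPM. Against their main copies, COX4L reached 2.10 and ATPsynbetaL 1.90 UMIs per 1000 of COX4 and ATPsynbeta, and COX7AL 4.22 per 1000 of COX7A. COX4L was highest in hemocyte-like cells, at 15.8 CPM on 9 UMIs, and was the member with the highest ratio in SGP-like cells over stage 2 germ cells (2.06, 1.49 to 2.86). ATPsynepsilonL alone had over 1000 UMIs, namely 51060 against 68316 of sun.

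The sexes differed in the members by chromosome. In FGC1 against MGC1, 0 of 59 members were higher and 1 lower (0% and 1.69%, against 10.1% and 1.17% of 6161 genes). In FGC2 against MGC2, 6 of 61 were higher and 2 lower (9.84% and 3.28%, against 12.9% and 5.76%). In FGC3 against MGC3, 12 of 59 were higher and 4 lower (20.3% and 6.78%, against 19.1% and 18.9%). Every member called higher in females was X-linked and every member called lower was autosomal. Other genes called higher were also mostly X-linked, with 613 X-linked and 7 autosomal at stage 1, 866 and 18 at stage 2, and 797 and 463 at stage 3. At stage 1, 0 of 11 X-linked members passed the fold, against 613 of 1064 other X-linked genes. The latter were used to sex the cells and the members were not, so these 2 counts are not a like comparison.

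X-linked members had a median ratio of females to males of 1.34 at stage 1 (11 genes, 1.09 to 1.47), 1.52 at stage 2 (12 genes, 1.34 to 1.84) and 1.61 at stage 3 (12 genes, 1.51 to 2.48). All of them were above 1 at each stage. For the other X-linked genes the medians were 1.55, 1.64 and 1.71, and for the autosomal members 0.962, 0.946 and 0.898. The other autosomal genes had medians of 0.944, 0.868 and 0.868, so values below 1 were not particular to the autosomal members. At stage 2, ND-75, the largest core subunit of complex I, had 114 CPM in females against 62.4 CPM in males (1.83, 1.71 to 1.97). ND-20 was at 371 and 214 CPM (1.74) and ND-18 at 241 and 144 CPM (1.67). In FGC3 and MGC3, ND-B18 was at 603 and 342 CPM (1.76), and ND-MNLL, on 185 and 67 UMIs and over CG45089 on the same strand, had the highest ratio (2.48). Since cells were sexed by the other X-linked genes, the direction of these ratios is in part set by that choice, although the members did not enter it. At stages 1 and 2 the ratios of the other X-linked genes are set by it more directly. They are therefore not a like baseline for the members. Counting each cell equally, 6 rather than 12 members were higher in FGC3, and under the scaling by the median of gene ratios 11 rather than 6 were higher in FGC2.

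The members lower in females were few. ND-B8 had a ratio of 0.620 (0.522 to 0.734) at stage 1, 0.532 at stage 2 and 0.361 at stage 3, although with the separate matrix of each library 0 members were lower at stage 1. ATPsynepsilonL had ratios of 0.808, 0.863 and 0.583. At stage 3 ND-23, an iron-sulfur subunit of complex I, was at 79.8 CPM in FGC3 and 155 CPM in MGC3 (0.513), and UQCR-11 at 213 and 333 CPM (0.638). COX7AL was lower in FGC2, at 2.04 against 4.18 CPM (0.488, 0.325 to 0.721). In FGC1 against MGC1 nuclei, 0 of 57 members were higher and 12 lower (21.1%, against 40.0% higher and 6.49% lower of all genes), and the X-linked members had a median of 0.821 against 0.744 for the autosomal ones. Median depth was 8888 UMIs in FGC1 and 1607 UMIs in MGC1 nuclei, and its part was not tested.

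**Figure D5:**
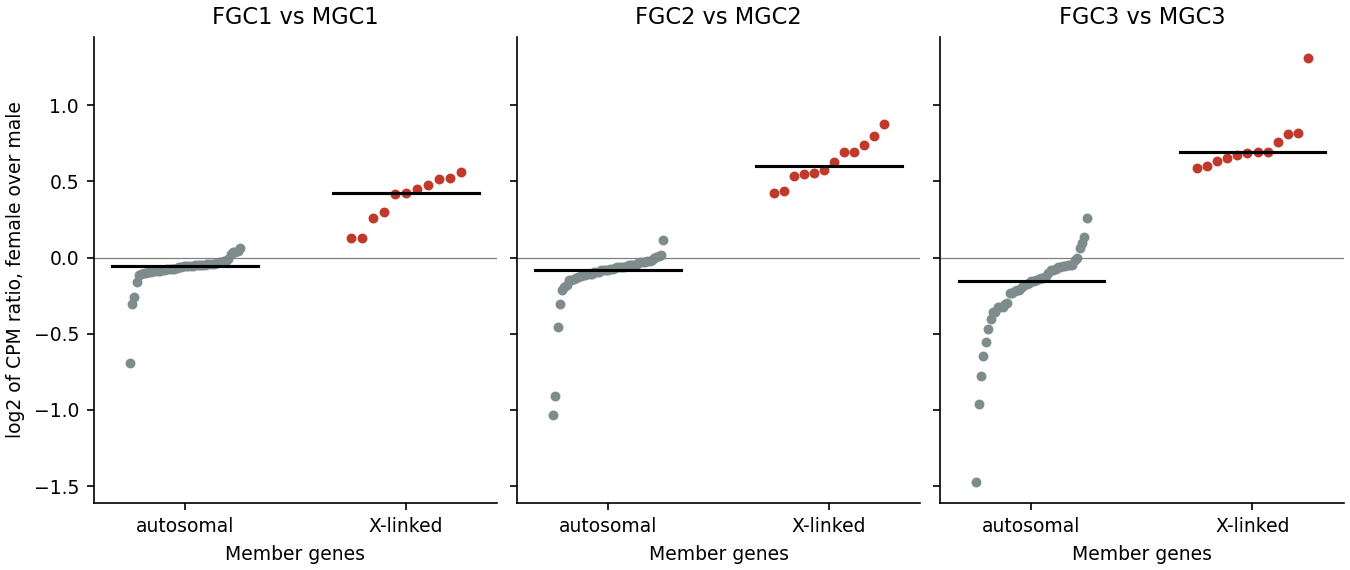
log2 of the female to male CPM ratio of each member gene with enough UMIs (points, sorted), for autosomal and X-linked members at the 3 stages. Black lines are medians and the grey line marks equal levels. X-linked members lie above 0 at every stage and most autosomal members just below it. Most other autosomal genes, which are not drawn, were also lower in females.

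SGP-like cells had less RNA of these genes than stage 2 germ cells of the same library. Of 62 members, 41 were lower and 2 higher (66.1% and 3.23%, against 49.6% and 23.5% of 7675 genes). The median member was lower by 0.81 on the log2 scale, and the median of all genes by 0.57. Scaled by the median of gene ratios, the counts were 9 lower and 3 higher, since the scaling shifted all genes by 0.57. The lowest ratios were those of ND-B8 (0.0992), ATPsynepsilonL (0.134) and COX7AL (0.138). ND-MLRQ was higher in SGP-like cells, at 401 against 234 CPM, and UQCR-C2 had a ratio of 1.28. FSGP against FGC2 nuclei gave 38 of 57 members lower and 0 higher (66.7%, against 35.3% and 21.7% of all genes).

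The SGP-like clusters differed among themselves. In the Wnt2-led against the CG5149-led cluster, 37 of 58 members were higher and 1 lower (63.8% and 1.72%, against 25.6% and 30.8% of 6486 genes), with a median of 0.72 against -0.07 for all genes on the log2 scale. ATPsynC was at 3303 and 1095 CPM (3.02, 2.96 to 3.08), ND-B14.5A at 162 and 71.7 CPM (2.26) and ND-ACP at 416 and 188 CPM (2.21). Genes of the tricarboxylic acid cycle moved the same way, with 8 of 11 higher and 0 lower and a median of 1.31, as did glycolysis with 9 of 12 higher and 2 lower. Subunits encoded in mitochondria did not pass the fold, at 0 of 11 in each direction. The median depth was 4840 UMIs in the Wnt2-led and 1956 UMIs in the CG5149-led cells, and its part was not tested.

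The Six4-led and upd1-led clusters lay closer to the CG5149-led cluster in these genes. Against the latter, 0 of 57 members were higher and 1 lower in Six4-led cells (against 13.9% and 16.5% of all genes), and 1 higher and 1 lower in upd1-led cells (against 10.8% and 17.2%). The lower gene was ND-23 in Six4-led cells (0.577, on 49 UMIs) and ATPsynepsilonL in upd1-led cells, as in the Wnt2-led cluster. The germ cell gene CG4415 was at 101 CPM in CG5149-led, 40.5 in Wnt2-led and 30.8 CPM in upd1-led cells. The part of germline background in somatic ATPsynepsilonL was not tested. The gene higher in upd1-led cells was ND-B14.7, a membrane-arm subunit of complex I, at 372 CPM against 124 in CG5149-led, 144 in Wnt2-led and 98.0 CPM in Six4-led cells, and 85.9 to 220 CPM in all other named classes of the 8- to 20-h library. In the same comparison 10 of 11 mitochondrially encoded subunits were lower in upd1-led cells, whose median depth of 25991 UMIs was the highest of any class. In nuclei, pMSGP against FSGP gave 12 of 57 members higher and 0 lower (21.1%, against 29.1% and 16.6%). Large nuclei weigh heavily in both pools, and no count without them was made for these clusters. CG4415 was at 217 CPM in pMSGP and 85.9 CPM in FSGP nuclei, and the part of germline RNA was not tested.

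Muscle-like cells stood above SGP-like cells, with 35 of 59 members higher and 2 lower (59.3% and 3.39%, against 14.5% and 55.0% of 6920 genes). The median member was higher by 0.62 on the log2 scale while the median of all genes was lower by 0.75. Scaled by the median of gene ratios, 26 members were higher and 4 lower. ND-ACP had the largest ratio, at 711 against 252 CPM (2.81, 2.68 to 2.96), followed by ND-B14 (2.66) and ND-75 (2.19). ND-B17, at 191 against 287 CPM, had a ratio of 0.668. The 2 genes called lower were ATPsynepsilonL and COX4L, the latter on 5 UMIs in muscle-like cells. CG4415 was at 17.1 CPM in muscle-like and 30.8 to 143 CPM in SGP-like clusters, and the part of germline background in ATPsynepsilonL was not tested. Of the glycolysis genes 10 of 12 were higher and 1 lower, with a median of 2.89 on the log2 scale. Ldh, which makes lactate from pyruvate, was at 2291 CPM in muscle-like and 5.33 CPM in SGP-like cells. With the Wnt2-led cluster left out of the SGP-like cells, 47 of the members were higher and 2 lower, an alternative chosen after the data were seen.

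Against the pooled neuron-like, glia-like and hemocyte-like cells, 31 of 57 members were higher in muscle-like cells and 1 lower (54.4% and 1.75%, against 17.3% and 56.5% of 4098 genes). The median was 0.62, and -0.80 for all genes. Scaled by the median of gene ratios, 52 were higher and 1 lower. ND-ACP (2.45), UQCR-C1 (2.11), ATPsynC (2.01) and ND-39 (1.98) led, and the gene called lower was ATPsynepsilonL. CG4415 was at 17.1 CPM in muscle-like cells and 90.9 to 216 CPM in the pooled classes, and the part of germline background was not tested. Mitochondrially encoded subunits did not share the direction, with 0 of 11 higher and 4 lower.

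Midgut-like and fat body-like cells were as high or higher. Against the same pool, 54 of 57 members were higher in midgut-like cells and 1, ATPsynepsilonL, lower (94.7%, against 17.8% and 42.7%), with a median of 0.98. ATPsynC was at 5032 against 1554 CPM (3.24, 3.08 to 3.40), ND-B15 at 428 against 163 CPM (2.62) and ND-23 at 169 against 65.5 CPM (2.58). In fat body-like cells 38 of 57 were higher and 0 lower (66.7%, against 17.5% and 42.0%). Of the glycolysis genes, 8 of 11 were lower and 0 higher in midgut-like cells, against 42.7% of all genes lower. In fat body-like cells 7 of 12 were lower and 2 higher, against 42.0% lower and 17.5% higher of all genes. The midgut-like class rests on 97 cells and on 3 raised midgut markers, beside 3 raised neuron and 2 raised hemocyte markers (4 neuron markers under either alternative clustering), so its name is uncertain, and the middle 50% of its cells ranged from 2.06% to 5.45% in their share of member UMIs.

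Other subunits of the same chain, which the naming rule leaves out, were counted in the same way. In Wnt2-led against CG5149-led SGPs 8 of 14 such genes with enough UMIs were higher and 2 lower, against 25.6% and 30.8% of all genes. In midgut-like cells against the pool 11 of 12 were higher and 0 lower, against 17.8% and 42.7% of all genes. blw, the alpha subunit of the ATP synthase, was at 289 CPM in CG5149-led, 987 CPM in Wnt2-led and 1391 CPM in midgut-like cells. ox, a small complex III subunit, was at 1342 and 1407 CPM in the stage 1 sexes and at 384 and 397 CPM in those of stage 2, across the same step between libraries as UQCR-11. Of the regulators listed, TFAM, which packages and transcribes mitochondrial DNA, was at 193 CPM in GC-like cells, 202 CPM at stage 1 and 152 CPM at stage 2, and at 74.4 CPM in SGP-like and 193 CPM in muscle-like cells. Assembly factors were measured through 4 genes only, and all 4 were lower in SGP-like than in stage 2 germ cells, where 49.6% of all genes were lower.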

How the data were processed

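The authors deposited UMI counts per gene and cell or nucleus, made from 10x Genomics libraries. The submitters' processing notes name Cell Ranger 6.1.2, Cell Ranger ARC 1.0.0 and the BDGP6 genome. The deposited counts were used without normalization, from the multiome matrix and from the aggregated matrix of both cell libraries, in which the authors had equalised read depth between the libraries. The chromatin table was not used here, and 0 columns of other samples were present. Cells were clustered with scanpy 1.11.5 (2000 variable genes without the members, 150 components, 20 neighbours), which gave 22 clusters, named "-like" where the marker lists allowed it. 1705 cells in no named class and 339 cells of a class in the other library were left out of the classes. Doublet calls (11 in the 0- to 8-h and 551 in the 8- to 20-h library, or 0.289% and 4.38%) were kept in. Stage 1 and stage 2 cells were sexed at a posterior of 0.95. The nuclei of the 9 clusters were recovered from the cluster means of the study, and the sums matched exactly for 199 of 199 genes held out in each cluster.

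UMIs were summed per class and given as CPM, with exact binomial (Clopper-Pearson) intervals for shares and exact conditional intervals for ratios, computed with SciPy 1.17.1. A UMI count of 0 was taken to allow up to 3 UMIs. The median depth was 11766.5 UMIs in 0- to 8-h cells, 4896 in 8- to 20-h cells and 2423.5 in nuclei. The ratio script was tested on simulated data. Promoter sequences came from RefSeq, whose positions matched those of the file for 74 of 74 members.

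The text names the 10 members with the highest CPM, the paralogs with their main copies, the 3 largest ratios in each direction and the 5 non-members of most similar pattern. UQCR-11, UQCR-C1, UQCR-C2, ND-13B, ND-AGGG, ND-B14.7, blw, ox, TFAM and Ldh were given further values after these had been seen. The members, gene lists and classes were chosen with earlier results of these data known. Only 4 of 14 symbols listed as assembly factors were found. Alternatives changed the matrix, the clustering, the doublets, the weight of cells, the scaling and the minimum count.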

Additional observations from a re-analysis of the deposited data

How the results depend on the processing

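Of 198 counts of members recomputed under an alternative, 166 stayed within 1.5 times the value given and 32 did not. Under scaling by the median of gene ratios, the members lower at stage 1 than in GC-like cells numbered 2, those higher in FGC1 than MGC1 1, those higher in FGC2 than MGC2 11, those lower in SGP-like than stage 2 cells 9, those lower in muscle-like than SGP-like cells 4, those higher in muscle-like cells than in other named soma 52, those higher in MGC1 than GC nuclei 16 and those lower in FGC1 than GC nuclei 1. With mitochondrial and ribosomal protein genes left out of the totals, the last 3 were 50, 17 and 1. With no minimum count, 2 members were lower at stage 1 than in GC-like cells, 2 higher in FGC3 than FGC2, 1 higher and 2 lower in FGC1 than MGC1, 5 lower in FGC2 than MGC2, 4 lower in muscle-like cells than in other named soma, 2 lower in FGC2 than FGC1 nuclei and 1 lower in MGC1 than GC nuclei. Counting each cell equally gave 1 higher in MGC3 than MGC2, 6 higher in FGC3 than MGC3, 10 higher and 1 lower in MGC1 than GC nuclei, and 5 lower in FGC1 than GC nuclei. Without the largest nucleus of each cluster, 2 were lower in MGC1 than GC nuclei, and 0 higher and 6 lower in FGC1 than GC nuclei. The separate matrix of each library gave 0 lower in FGC1 than MGC1, and 50 components with resolution 2 gave 1 higher. With the members among the clustered genes, 0 were lower in muscle-like cells than in SGP-like cells and 0 than in other named soma. Without the Wnt2-led cluster, an alternative chosen after seeing the data, 1 was higher in SGP-like than stage 2 cells. The cause was not tested, except that fewer or more genes are compared under another minimum count.

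No paired analysis was possible because each group is 1 library and the labels give no replicate numbers. The scalings moved the median of all genes by up to 0.57 on the log2 scale. Depth limits the paralogs most, since 12 of 16 had under 100 UMIs in all cells. With 1 library per group, no difference could be set against the spread between embryos or collections.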

Other observations

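Cyt-c1L, a duplicate of the complex III subunit Cyt-c1 that the naming rule leaves out, was also higher in germ cells after zygotic activation. It was at 3.78 CPM in GC-like cells, 53.7 in FGC1, 68.8 in MGC1, 91.5 in FGC2, 93.3 in MGC2, 109 in FGC3 and 133 CPM in MGC3. Cyt-c1 itself was at 380 CPM in GC-like cells, 228 in FGC2, 223 in MGC2, 206 in FGC3 and 179 CPM in MGC3. The paralog was thus the lower of the pair in every germ cell class, whereas ATPsynepsilonL was above sun from stage 2 on in cells, though not in FGC2 nuclei.

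In upd1-led against CG5149-led SGPs, 9 of 11 genes of the tricarboxylic acid cycle were higher and 1 lower, and 7 of 12 glycolysis genes were higher and 0 lower, whereas 1 of 57 members was higher, against 10.8% higher and 17.2% lower of all genes. In pMSGP against FSGP nuclei, 8 of 11 genes of the cycle were higher and 0 lower, beside 12 of 57 members (21.1%, against 29.1% higher of all genes). The weight of large nuclei in these pools was not tested.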
